A study of Mus musculus with 8 samples.

Results

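The antioxidant and Nrf2 target genes described here are 10 mouse genes: Nfe2l2, which encodes the transcription factor Nrf2, and Gclc, Gclm, Gsr, Gpx1, Cat, Txnrd1, Srxn1, Nqo1 and Hmox1. They were chosen by name, as the probes whose gene name in the scanner files is a member, and glutathione transferases were left out. Earlier results of these data were known at that choice, so counts set against all genes only describe this set. The 10 genes have 16 probes among 41174 on the array, and they stand among 17106 genes tested. All 16 probes were well above background on all 8 arrays, so no member was removed by the filter on dim probes. Liver RNA was measured on 8 one-colour arrays in 4 groups of 2: C57BL/6J at 4 weeks, KKAy at 4 weeks, C57BL/6J at 11 weeks and KKAy at 11 weeks. C57BL/6J is a standard inbred strain, labelled normal. KKAy is an obese strain that carries the yellow allele of agouti on the KK background, and it is labelled as having diabetes. All mice were given chow and fasted for 13.5 hours, and their sex was not given in the sources used here. KKAy and C57BL/6J differ across the genome, so the agouti allele and the rest of the KK background cannot be told apart.

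Nrf2 is held in the cytoplasm by the adaptor Keap1, which directs it to degradation. Oxidants and electrophiles modify Keap1, and Nrf2 then enters the nucleus, pairs with a small Maf protein and binds the antioxidant response element of its target genes, while Bach1 competes for the same sites. In the liver the targets make and recycle glutathione, drive the thioredoxin system, reduce quinones and break down haem. Most of this control acts on the Nrf2 protein, so the level of Nfe2l2 transcript is not a measure of its activity. Catalase and Gpx1 remove hydrogen peroxide in hepatocytes and are counted among antioxidant genes more than among the core targets.

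RefSeq promoter windows of GRCm38.p6, which run from 250 bases before to 50 after a gene's start, were matched to 7 of the 10 members (9 windows, 3 of them for Txnrd1). They were searched on both strands for TGACNNNGC, the core of the antioxidant response element, because that is the sequence through which Nrf2 acts. The motif occurred in the windows of 4 members (4 of 9 windows), against 12.4% of all 32851 windows (4071). In Srxn1 it lay after the start. The other 3 matches lay before it, 134 bases upstream in Gclm, 92 bases in the second of the Txnrd1 windows and 240 bases in Nfe2l2, and are printed on the gene's strand with the motif in capitals.
Gclm, chr3:122245411-122245443, plus strand: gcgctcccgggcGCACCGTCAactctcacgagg
Txnrd1, chr10:82859102-82859134, plus strand: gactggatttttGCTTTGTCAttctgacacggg
Nfe2l2, chr2:75704883-75704913, minus strand: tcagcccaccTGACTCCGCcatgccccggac
In Gclm and Txnrd1 the motif reads on the opposite strand. A match describes these letters only, and elements farther from the start lie outside these windows.

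Across the arrays the 75th percentile of signal ranged from 476.1 to 1192 units, with 56.3% to 66.7% of spots well above background. All 10 hepatocyte markers examined were above background on all 8 arrays. Levels below are log2 signal relative to the array's 75th percentile, and differences are log2 differences of group means from limma with their SE, 2 arrays per group and Benjamini-Hochberg adjusted p over all genes tested. A gene is called changed at an adjusted p under 0.05. Unless stated, calls come from the fit without the replicate number as a block, and calls with the block are given in a closing section. A level of one probe is not comparable with that of another. The labels do not say that the samples came from separate animals, so p-values here describe the spread among these samples alone, and that spread may be technical. In bulk liver, fewer cells of a type and less RNA per cell cannot be told apart. All 4-week arrays shared slide 1 and all 11-week arrays slide 2. Age therefore cannot be told apart from slide, while the strains were compared within a slide, where strain goes with position. The comparisons share arrays with each other and are not independent. Under spike-in scaling the all-gene median went from 0.01 to 0.37 in the 4-week strain comparison, from -0.001 to 0.14 at 11 weeks and from 0.02 to -0.19 for age in KKAy, and the share of calls that were higher from 41.4% to 75.6%, from 46.3% to 60.5% and from 42.5% to 19.4%.

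**Figure D1:**
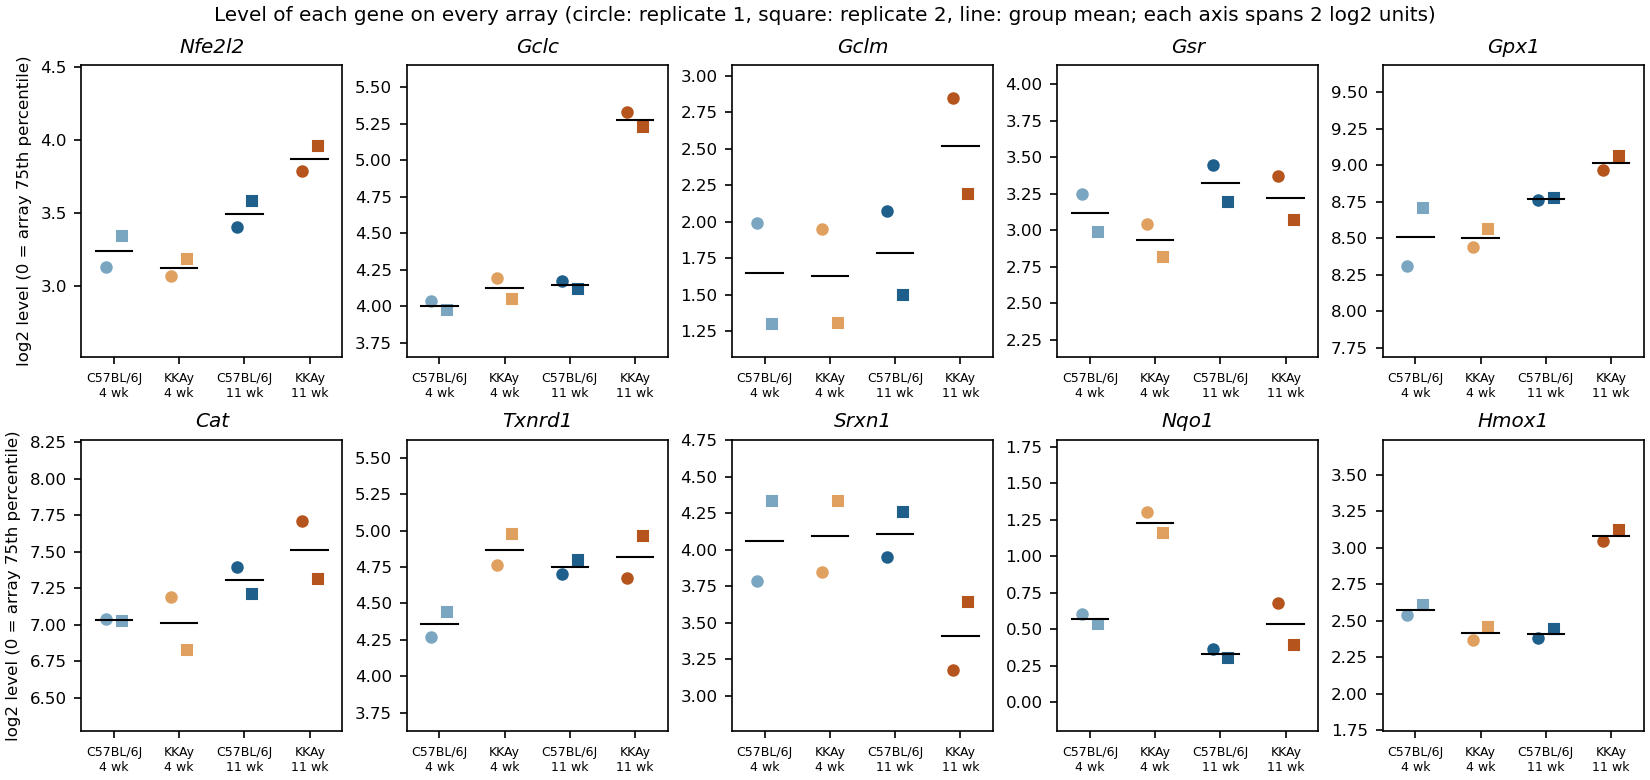
Log2 level of each of the 10 genes on every array, relative to the array's 75th percentile, by strain and age. Each panel spans 2 log2 units, circles are replicate 1, squares replicate 2 and lines group means. Gclc and Hmox1 stand apart in KKAy at 11 weeks, where the levels of Gclc were 5.33 and 5.23, and Nqo1 in KKAy at 4 weeks.

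At 4 weeks the strains differed in 1 of the 10 members: Nqo1 was higher in KKAy (1 of 10, against 6.37% of all genes called higher), and no member was called lower, against 9.01%. At 11 weeks Gclc and Hmox1 were higher in KKAy (2 of 10, against 9.94%), and no member was called lower, against 11.6% of all genes. With age, no member was called in C57BL/6J by limma, where 8.36% of all genes were called (1.9% higher and 6.46% lower) and 1 member had an unadjusted p under 0.05. In KKAy, Gclc, Nfe2l2 and Hmox1 rose from 4 to 11 weeks (3 of 10, against 7.92% called higher) and Nqo1 fell (1 of 10, against 10.7% called lower). The strain difference was larger at 11 than at 4 weeks for Gclc and Hmox1 (2 of 10, against 2.05% called in that direction), and it was smaller for none, against 1.72%. Over the 10 members the median difference was -0.01 between strains at 4 weeks, 0.23 at 11 weeks, 0.17 for age in C57BL/6J and 0.51 for age in KKAy, against 0.01, -0.001, 0.05 and 0.02 over all genes. Over 10 hepatocyte markers the medians were 0.04, 0.20, 0.33 and 0.45 in the same order. The member median for age in KKAy lay between Cat (0.50) and Gpx1 (0.52). With quantile normalization these stood at 0.24 and 0.05.

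**Figure D2:**
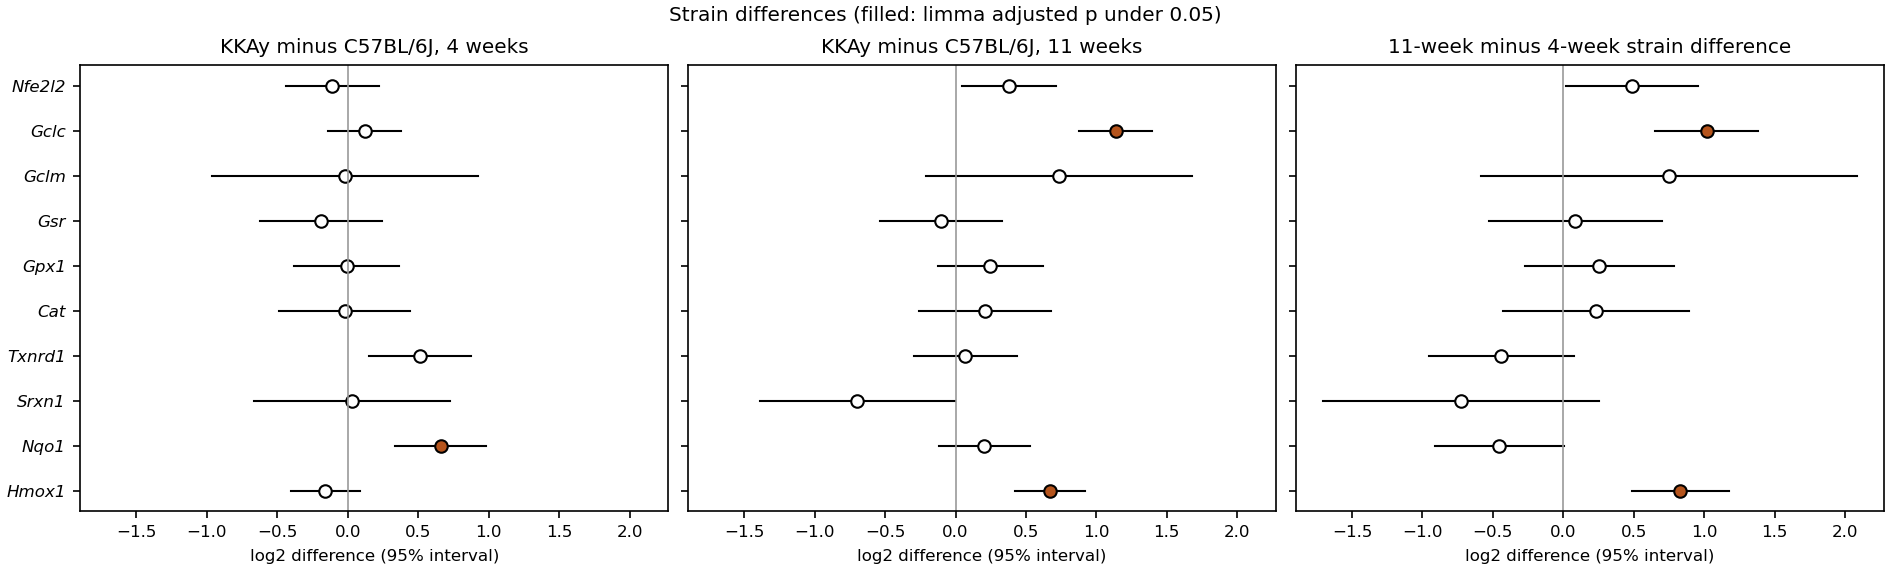
Difference between KKAy and C57BL/6J at 4 and at 11 weeks, and the change in that difference with age, for each member on a log2 scale. Points are limma estimates, bars 95% intervals and filled points are called at an adjusted p under 0.05. Nqo1 is filled at 4 weeks, and Gclc and Hmox1 at 11 weeks and for the change in the difference.

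Gclc encodes the catalytic subunit of glutamate-cysteine ligase, the enzyme that sets the rate of glutathione synthesis. It has a single probe, so the alternative that averages a gene's probes left its levels unchanged. This probe lies on chromosome 9 from 77579173 to 77579232 (mm8, the build of the file annotation). The levels were 4.03 and 3.97 in C57BL/6J at 4 weeks, 4.19 and 4.05 in KKAy at 4 weeks, 4.17 and 4.11 in C57BL/6J at 11 weeks, and 5.33 and 5.23 in KKAy at 11 weeks. Both KKAy arrays of 11 weeks thus lay above the other 6 arrays, which ran from 3.97 to 4.19. At 11 weeks Gclc was higher in KKAy by 1.14 (SE 0.10, adjusted p = 0.00124), a 2.20-fold difference. At 4 weeks the difference was 0.12 (SE 0.10, adjusted p = 0.579). Within KKAy it rose with age by 1.16 (SE 0.10, adjusted p = 0.00182), and in C57BL/6J the age difference was 0.14 (SE 0.10, adjusted p = 0.565). The strain difference at 11 weeks exceeded that at 4 weeks by 1.02 (SE 0.15, adjusted p = 0.0249). The calls at 11 weeks and for age in KKAy held under all 17 alternatives for each, but the change in the strain difference was not called when any 1 of the 8 arrays was left out (adjusted p = 0.0705 to 0.142), with quantile normalization (adjusted p = 0.122), with spike-in scaling (0.80, adjusted p = 0.195) or with no filter on dim probes (adjusted p = 0.132).

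Gclm encodes the modifier subunit of the same ligase, which raises its activity. Its probe maps to chromosome 3 from 122251278 to 122253913, a span of 2636 bases that is wider than the 60 of most probes here. The levels were 1.99 and 1.30 in C57BL/6J at 4 weeks, 1.95 and 1.31 in KKAy at 4 weeks, 2.08 and 1.50 in C57BL/6J at 11 weeks, and 2.85 and 2.19 in KKAy at 11 weeks. Replicate 1 was above replicate 2 in all 4 groups, and the 2 arrays of KKAy at 11 weeks were each the highest of their replicate number. The difference at 11 weeks was 0.73 (SE 0.39, 95% interval -0.21 to 1.68), which limma did not call in the fit without pairing (adjusted p = 0.247). With the replicate number as a block limma called the difference (adjusted p = 0.000479), though the labels do not say that the numbers pair samples. For age in KKAy it was 0.89 (SE 0.39, adjusted p = 0.175). The SD within a group was 0.41 to 0.49 for Gclm and 0.04 to 0.10 for Gclc.

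Gsr encodes glutathione reductase, which returns oxidised glutathione to its reduced form. Its 3 probes lie on chromosome 8 between 35163276 and 35163921. The brightest read 3.25 and 2.99 in C57BL/6J at 4 weeks, 3.05 and 2.82 in KKAy at 4 weeks, 3.45 and 3.20 in C57BL/6J at 11 weeks, and 3.37 and 3.07 in KKAy at 11 weeks. The strain groups overlapped at both ages, and no comparison of Gsr was called (adjusted p = 0.321 to 0.934). The interval of the strain difference ran from -0.62 to 0.25 at 4 weeks and from -0.53 to 0.33 at 11 weeks. The other 2 probes gave -0.17 and -0.18 at 4 weeks against -0.19 for the brightest.

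Gpx1 encodes the main glutathione peroxidase of the cytosol, and its probe lies on chromosome 9 from 108198037 to 108198096. The levels were 8.31 and 8.71 in C57BL/6J at 4 weeks, 8.44 and 8.56 in KKAy at 4 weeks, 8.76 and 8.77 in C57BL/6J at 11 weeks, and 8.97 and 9.06 in KKAy at 11 weeks. The 4-week strains overlapped, and the 11-week arrays were above all 4-week arrays. No comparison was called: age in KKAy came to 0.52 (SE 0.15, adjusted p = 0.068) and the strain difference at 11 weeks to 0.25 (SE 0.15, adjusted p = 0.322). With quantile normalization Gpx1 stood at 0.05 for age in KKAy, -0.12 for age in C57BL/6J and 0 between strains at 11 weeks. Cat encodes catalase, the hydrogen peroxide enzyme of peroxisomes, and its probe lies on chromosome 2 from 103255342 to 103255401. The levels were 7.04 and 7.02 in C57BL/6J at 4 weeks, 7.19 and 6.83 in KKAy at 4 weeks, 7.40 and 7.21 in C57BL/6J at 11 weeks, and 7.71 and 7.31 in KKAy at 11 weeks. The strains overlapped at both ages. Age in KKAy came to 0.50 (SE 0.19, adjusted p = 0.128), and the interval of the strain difference at 11 weeks ran from -0.26 to 0.68.

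Txnrd1 encodes cytosolic thioredoxin reductase, a selenoprotein that keeps thioredoxin reduced. Its probe lies on chromosome 10 from 82327284 to 82327343. The levels were 4.27 and 4.45 in C57BL/6J at 4 weeks, 4.76 and 4.98 in KKAy at 4 weeks, 4.70 and 4.80 in C57BL/6J at 11 weeks, and 4.68 and 4.96 in KKAy at 11 weeks. The C57BL/6J arrays of 4 weeks lay below the other 6. At 4 weeks KKAy stood 0.51 above C57BL/6J (SE 0.15, adjusted p = 0.0759), short of the threshold. Quantile normalization called this difference, at 0.48 (adjusted p = 0.0137). Spike-in scaling called it at 0.86 (adjusted p = 0.0188). At 11 weeks it was 0.07 (SE 0.15, 95% interval -0.29 to 0.43).

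Srxn1 encodes sulfiredoxin, which repairs over-oxidised peroxiredoxins. Its brightest probe lies on chromosome 2 from 151802624 to 151802683, and the other 2 overlap each other between 151800890 and 151800996. The brightest read 3.79 and 4.34 in C57BL/6J at 4 weeks, 3.85 and 4.34 in KKAy at 4 weeks, 3.95 and 4.26 in C57BL/6J at 11 weeks, and 3.18 and 3.64 in KKAy at 11 weeks. Both KKAy arrays of 11 weeks were below the other 6. On this probe the 11-week strain difference was -0.70 (SE 0.28, adjusted p = 0.144) and was not called, while the mean of all probes gave -0.82 (adjusted p = 0.0266). The second probe read 1.51 and 1.65 in C57BL/6J and 0.48 and 0.74 in KKAy at 11 weeks, a difference of -0.97 (SE 0.15, adjusted p = 0.00841). The dimmest probe gave -0.81 (SE 0.15, adjusted p = 0.0143). For age in KKAy the 3 probes gave -0.68, -0.74 and -0.52, of which the second was called (adjusted p = 0.0264). All 3 probes thus went the same way at 11 weeks, opposite to Gclc and Hmox1, and the SE of the brightest was the widest.

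Nqo1 encodes a quinone reductase that is often read as a marker of Nrf2 activity, and its probe lies on chromosome 8 from 110277669 to 110277728. The levels were 0.61 and 0.53 in C57BL/6J at 4 weeks, 1.30 and 1.16 in KKAy at 4 weeks, 0.36 and 0.30 in C57BL/6J at 11 weeks, and 0.68 and 0.39 in KKAy at 11 weeks. Both KKAy arrays of 4 weeks lay above the other 6. At 4 weeks Nqo1 was higher in KKAy by 0.66 (SE 0.13, adjusted p = 0.0229), a 1.58-fold difference, and within KKAy it fell by 0.69 with age (SE 0.13, adjusted p = 0.0186). At 11 weeks the strain difference was 0.20 (SE 0.13, adjusted p = 0.344), and the change of the strain difference with age was -0.45 (SE 0.19, adjusted p = 0.282) and was not called in the fit without pairing. The 4-week call was lost without any 1 of the 4 arrays of 4 weeks or of the 2 C57BL/6J arrays of 11 weeks (adjusted p = 0.0609 to 0.122). The call for age in KKAy was lost without either KKAy array of 4 weeks, either C57BL/6J array of 11 weeks or KKAy replicate 2 of 11 weeks (adjusted p = 0.0512 to 0.101). Both calls were also lost with no filter on dim probes (adjusted p = 0.0846 and 0.0724) and from the arrays of the groups compared alone (adjusted p = 0.0733 and 0.123).

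Hmox1 encodes inducible haem oxygenase, and its probe lies on chromosome 8 from 77996380 to 77996439. The levels were 2.54 and 2.61 in C57BL/6J at 4 weeks, 2.37 and 2.46 in KKAy at 4 weeks, 2.38 and 2.44 in C57BL/6J at 11 weeks, and 3.04 and 3.12 in KKAy at 11 weeks. Both KKAy arrays of 11 weeks lay above the other 6. Hmox1 was higher in KKAy at 11 weeks by 0.67 (SE 0.10, adjusted p = 0.0067), a 1.59-fold difference. At 4 weeks the difference was -0.16 (SE 0.10, adjusted p = 0.396), and with spike-in scaling it turned to 0.19. In KKAy Hmox1 rose with age by 0.67 (SE 0.10, adjusted p = 0.00872), and the strain difference grew by 0.83 (SE 0.14, adjusted p = 0.0379). The 11-week call was lost without either C57BL/6J array of that age (adjusted p = 0.0656 and 0.0511), the age call without KKAy replicate 1 of 4 weeks (adjusted p = 0.0607) with spike-in scaling (0.46, adjusted p = 0.126) and from the arrays of these groups alone (adjusted p = 0.0949), and the growth of the difference without any 1 array (adjusted p = 0.089 to 0.195), with spike-in scaling (0.62, adjusted p = 0.314) and with no filter on dim probes (adjusted p = 0.195).

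Hmox1 is also expressed by Kupffer cells, the macrophages of the liver that take up red cells. The 14 Kupffer cell and macrophage markers examined were all above background on all arrays, and their summed level, in multiples of the 75th percentile, ran from 193.6 to 223.7 in C57BL/6J at 4 weeks, 81.5 to 91.4 in KKAy at 4 weeks, 83.1 to 88.7 in C57BL/6J at 11 weeks and 49.8 to 52.3 in KKAy at 11 weeks. At 11 weeks 8 of the 14 were called lower in KKAy, with a median of -0.48, so Hmox1 was higher in the group with the lowest macrophage sum. The sum of 8 neutrophil markers, 4 of them above background on all arrays and 2 on none, was 5.81 to 8.07 in KKAy at 11 weeks and 1.38 to 4.02 in the other groups. Of the 5 neutrophil markers tested, 2 were called higher in KKAy at 11 weeks, against 9.94% of all genes, with a median of 0.49. For age in KKAy 2 of the 5 were called higher, against 7.92%, and 2 had a negative difference (median 0.21). The sum of 10 erythroid markers, 5 of them above background on all arrays and 3 on none, was 194.1 to 203.6 in KKAy at 11 weeks, against 145.6 to 150.6 in C57BL/6J of that age and 282.7 to 451.5 at 4 weeks. The part of these cells in the Hmox1 difference was not tested.

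Nfe2l2 has 3 probes on the minus strand of chromosome 2. The brightest lies from 75476553 to 75476612 and the second from 75476699 to 75476758, both annotated to the RefSeq transcript. The brightest read 3.13 and 3.34 in C57BL/6J at 4 weeks, 3.07 and 3.18 in KKAy at 4 weeks, 3.40 and 3.58 in C57BL/6J at 11 weeks, and 3.79 and 3.96 in KKAy at 11 weeks. The KKAy arrays of 11 weeks were the highest of the 8, and the 4-week strains overlapped. In KKAy Nfe2l2 rose with age by 0.75 (SE 0.13, adjusted p = 0.016), and the second probe gave 0.73 (SE 0.18, adjusted p = 0.0437). The strain difference at 11 weeks was 0.38 (SE 0.13, adjusted p = 0.106) and its change with age 0.49 (SE 0.19, adjusted p = 0.259), neither of them called. The age call was lost without either KKAy array of 4 weeks or KKAy replicate 2 of 11 weeks (adjusted p = 0.064 to 0.0884), with spike-in scaling (0.54, adjusted p = 0.0833), with no filter on dim probes (adjusted p = 0.0628) and from the arrays of these groups alone (adjusted p = 0.0899).

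The third Nfe2l2 probe lies upstream of these on the gene's strand, from 75492729 to 75492788, and is annotated to a cDNA clone (AK029360). It read 0.34 and 0.45 in C57BL/6J at 4 weeks, -0.52 and -0.58 in KKAy at 4 weeks, -0.18 and -0.18 in C57BL/6J at 11 weeks, and -0.49 and -0.93 in KKAy at 11 weeks. It was thus highest in C57BL/6J at 4 weeks, where the probes of the RefSeq transcript were not. On this probe KKAy was lower at 4 weeks, at -0.95 (SE 0.16, adjusted p = 0.0136), and stood at -0.53 (SE 0.16, adjusted p = 0.0668) at 11 weeks. For age in KKAy it stood at -0.16, opposite in sign to the brightest probe. Whether it reads the same transcript was not tested.

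**Figure D3:**
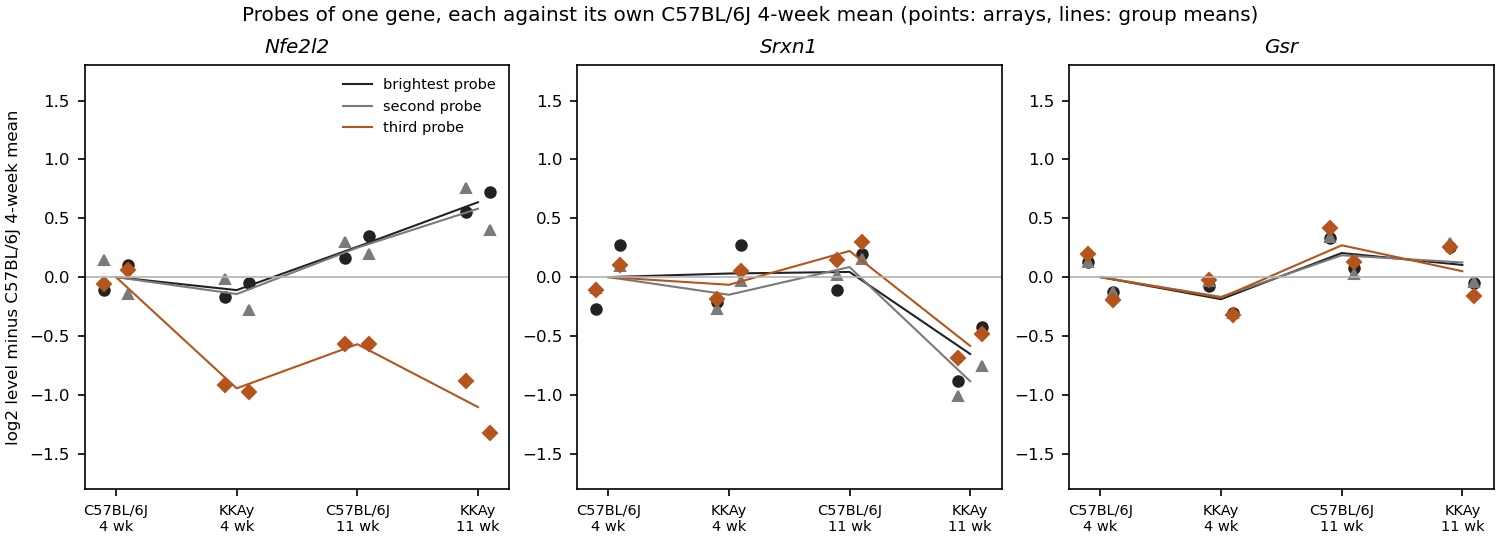
Probes of Nfe2l2, Srxn1 and Gsr, each on the log2 scale relative to its own mean in C57BL/6J at 4 weeks, by group, with arrays as points and group means as lines. The probes of Srxn1 and of Gsr run together, while the Nfe2l2 probe annotated to the cDNA clone, which lies at -0.95 in KKAy at 4 weeks, parts from the others.

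By group mean on the brightest probe, KKAy at 11 weeks was the highest of the 4 groups for Gclc, Gclm, Hmox1, Gpx1, Cat and Nfe2l2 and the lowest for Srxn1. KKAy at 4 weeks was the highest for Nqo1 and Txnrd1. The span between the highest and lowest group mean ran from 0.39 for Gsr to 1.27 for Gclc, with 0.90 for Nqo1, 0.89 for Gclm, 0.75 for Nfe2l2, 0.70 for Srxn1, 0.67 for Hmox1, 0.52 for Gpx1, 0.51 for Txnrd1 and 0.50 for Cat. The genes of the 10 therefore did not share 1 order of groups. Among 10830 other named genes tested, those whose 4 group means, centred on their own mean, lay nearest to Gclc were Tsc22d1, Sh3yl1 and Piga, with root mean square differences of 0.02, 0.03 and 0.04 over the 4 groups.

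**Figure D4:**
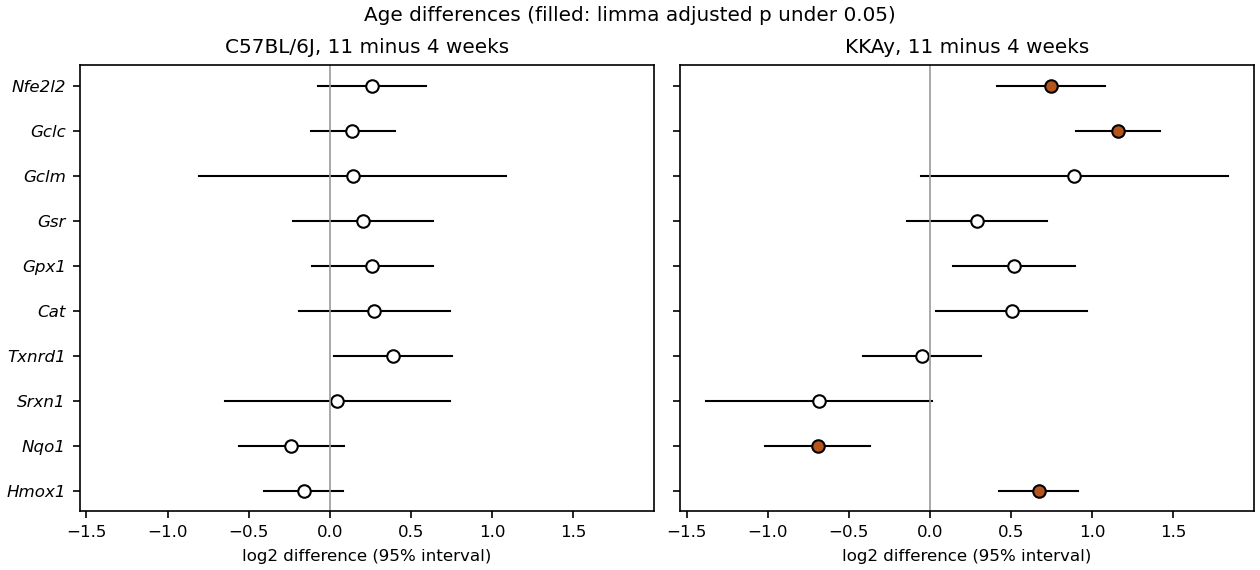
Difference between 11 and 4 weeks in each strain for the 10 genes, as log2 estimates from limma with 95% intervals and filled points for an adjusted p under 0.05. No point is filled in C57BL/6J, while in KKAy those of Gclc, Nfe2l2 and Hmox1 are filled above 0 and that of Nqo1 below.

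Around the 10 members, 72 other genes of the pathway passed the filter, from 6 lists: Nrf2 regulators, glutathione supply, thioredoxins and peroxiredoxins, superoxide and metal handling, NADPH supply, and further Nrf2 targets. Of glutathione supply genes, Ggt1 and Slc7a11 were on the array but not measured above background. At 4 weeks 6 of the 72 were higher and 4 lower in KKAy (13.9% called, against 15.4% of all genes), and at 11 weeks 11 were higher and 5 lower (22.2%, against 21.5%). With age 3 rose and 2 fell in C57BL/6J (6.94%, against 8.36%), and 11 rose and 9 fell in KKAy (27.8%, against 18.6%). Under spike-in scaling the split became 10 higher and 0 lower at 4 weeks, 8 and 2 at 11 weeks, and 4 higher and 12 lower for age in KKAy, where the balance turned. The change in the strain difference was called for 1 of the 72, Ugdh (1.39%, against 3.78%). In the strain comparisons the called shares were thus close to those of all genes. For setting beside the lists below, 6.37% of all genes were called higher and 9.01% lower in KKAy at 4 weeks. At 11 weeks the shares were 9.94% and 11.6%. The median over all genes was 0.01 at 4 weeks and -0.001 at 11 weeks. By the rule of the 2 smallest adjusted p per list and comparison, 37 calls of related genes are named below and were followed. Of these, spike-in scaling lost 12, quantile normalization 9, normexp correction 6 and the mean of all probes 3. No filter on dim probes lost 19, and the arrays of the groups compared alone 18 of 36.

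Of 9 Nrf2 regulators, 1 was called between strains at 4 weeks and 2 at 11 weeks, all higher in KKAy (medians 0.15 and 0.003). Bach1, the repressor of these targets, was higher by 1.64 at 4 weeks (SE 0.33, adjusted p = 0.0239) and by 1.34 at 11 weeks (SE 0.33, adjusted p = 0.0367). Maff, a small Maf partner, read -1.03 and -0.68 in C57BL/6J and 0.86 and 1.45 in KKAy at 11 weeks, a difference of 2.01 (SE 0.29, adjusted p = 0.00589). Within KKAy, Maff rose by 1.31 with age (SE 0.29, adjusted p = 0.0293), and Keap1, the sensor, fell by 0.44 (SE 0.11, adjusted p = 0.0446). The Maff difference at 11 weeks was kept without any 1 array. The other calls were each lost without at least 5 of the 8 arrays in turn, with adjusted p up to 0.127 and 0.192 for Bach1, 0.132 for Maff and 0.171 for Keap1.

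Of 12 glutathione supply genes measured, 2 were higher at 4 weeks, and 1 was higher and 1 lower at 11 weeks (medians 0.06 and -0.11). Chac1, which breaks down glutathione, was higher in KKAy at both ages, by 1.08 (SE 0.19, adjusted p = 0.0154) and by 2.29 (SE 0.19, adjusted p = 0.000879). The 11-week call was kept without any 1 array, and the 4-week call was lost without either C57BL/6J array or KKAy replicate 2 of that age (adjusted p up to 0.0921). Glrx, a glutaredoxin, was higher by 0.45 at 4 weeks (adjusted p = 0.0263, up to 0.142 without 1 array and 0.161 with quantile normalization), and Oplah, an oxoprolinase, was lower, at -0.66 at 11 weeks on its brightest probe and stood at 0.04 on its second. That call was lost without either C57BL/6J array of 11 weeks (adjusted p up to 0.0637) and also under spike-in scaling (-0.53, adjusted p = 0.0883). With age Gpx7, a peroxidase of the endoplasmic reticulum, fell by 1.49 in C57BL/6J and fell by 1.77 in KKAy (SE 0.15 for both), calls kept without any 1 array. Gpx4, the peroxidase of lipid peroxides, rose by 0.59 in KKAy (SE 0.12, adjusted p = 0.0217, up to 0.116 without 1 array), and stood at 0.38 (adjusted p = 0.208) with spike-in scaling.

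Of 16 thioredoxin and peroxiredoxin genes, 1 was lower at 4 weeks, and 1 was higher and 1 lower at 11 weeks (medians -0.02 and 0.30). Txnip, which binds and inhibits thioredoxin and is induced by glucose, read 4.15 and 3.93 in C57BL/6J at 4 weeks, 3.46 and 3.28 in KKAy at 4 weeks, 3.42 and 3.24 in C57BL/6J at 11 weeks, and 2.47 and 2.16 in KKAy at 11 weeks. It was lower in KKAy, at -0.67 at 4 weeks (SE 0.16, adjusted p = 0.0416) and at -1.02 at 11 weeks (SE 0.16, adjusted p = 0.00787), and fell in KKAy with age by 1.06 (SE 0.16, adjusted p = 0.00907). The call at 11 weeks was lost without C57BL/6J replicate 1 of that age (adjusted p = 0.0669), that for age without KKAy replicate 1 of 4 weeks (adjusted p = 0.0566), and that at 4 weeks without any of the 4 arrays of 4 weeks or 2 C57BL/6J arrays of 11 weeks (adjusted p up to 0.2). With spike-in scaling the 4-week difference of Txnip was -0.32 (adjusted p = 0.3). The second Txnip probe gave -1.21 at 4 weeks (adjusted p = 0.0581), -1.60 at 11 weeks (adjusted p = 0.0183) and -1.14 for age in KKAy (adjusted p = 0.0611). Msra, a methionine sulfoxide reductase, was higher by 0.62 at 11 weeks (adjusted p = 0.0323, up to 0.174 without 1 array and 0.224 with quantile normalization). Prdx6 rose by 0.59 in KKAy with age (adjusted p = 0.0174, up to 0.0887 without 1 array). That of Prdx6 was not called with spike-in scaling (0.38, adjusted p = 0.178) or quantile normalization (0.41, adjusted p = 0.0821). Its other probes, by brightness, gave 0.45 (adjusted p = 0.0481), 0.25 (adjusted p = 0.286) and 0.72 (adjusted p = 0.00865).

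Of 12 superoxide and metal genes, 1 was called lower at 4 weeks and 1 higher at 11 weeks (medians 0.12 and 0.30). In haem and iron handling, Blvrb, a biliverdin reductase, rose in KKAy with age by 0.80 (SE 0.14, adjusted p = 0.0156). Ftl1, the ferritin light chain, was higher in KKAy at 11 weeks by 0.45 (SE 0.09, adjusted p = 0.0225). The Blvrb call was lost without KKAy replicate 1 of 4 weeks or KKAy replicate 2 of 11 weeks (adjusted p up to 0.0849) and also under spike-in scaling (0.59, adjusted p = 0.0689). The Ftl1 call was lost without any 1 array (adjusted p = 0.0512 to 0.155), with quantile normalization (0.28, adjusted p = 0.404) and also under spike-in scaling (0.58, adjusted p = 0.0608). Mt1, a metallothionein, fell in KKAy with age by 0.83 on its brightest probe (SE 0.12, adjusted p = 0.00767) and stood at -0.17 on its second; the call was lost without KKAy replicate 2 of 4 weeks (adjusted p = 0.051). At 11 weeks the Mt1 probes disagreed between strains, with 0.10 on the brightest and 2.16 on the second, which was named after its value was seen. On the second probe the 4-week strain difference was -0.04. For age in C57BL/6J that probe gave -2.36 (adjusted p = 0.000465), against -0.51 (adjusted p = 0.058) on the brightest. Slc48a1, a haem transporter, was lower in KKAy at 4 weeks, at -0.82 on its brightest probe (adjusted p = 0.0459, up to 0.213 without 1 array) and stood at 0.08 on its second, and at -0.47 (adjusted p = 0.194) with spike-in scaling.

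Of 10 NADPH supply genes, 1 was higher and 1 lower at 4 weeks, and 1 higher and 2 lower at 11 weeks (medians -0.07 and 0.24). Nnt, the mitochondrial transhydrogenase, for which C57BL/6J carries a known deletion, was higher in KKAy at both ages, by 1.69 (SE 0.11, adjusted p = 0.000516) and by 1.57 (SE 0.11, adjusted p = 0.000453). Its next 2 probes in brightness gave 1.70 and 1.75 at 4 weeks and 1.49 and 1.58 at 11 weeks, while the fourth stood at -0.09 and -0.36. G6pdx, which opens the pentose phosphate pathway, was lower in KKAy at 4 weeks, at -0.69 (SE 0.13, adjusted p = 0.0216). It fell with age in both strains, by 0.71 in C57BL/6J (adjusted p = 0.032) and by 0.58 in KKAy (adjusted p = 0.0342). At 11 weeks G6pdx was also lower in KKAy, at -0.57 (adjusted p = 0.0332), a call not followed under the alternatives. Pgd of the same pathway was lower in KKAy at 11 weeks, at -0.50 (adjusted p = 0.0332), and its second probe gave -0.29 (adjusted p = 0.0939). Tkt rose in KKAy with age by 0.55 (adjusted p = 0.0428) but stood at -0.02 on its second probe. The Nnt calls were kept without any 1 array, and those of G6pdx, Pgd and Tkt were each lost without at least 6 of the 8 arrays in turn (adjusted p up to 0.196, 0.19 and 0.189). With spike-in scaling G6pdx at 4 weeks stood at -0.34 (adjusted p = 0.257), Pgd at -0.36 (adjusted p = 0.29) and Tkt at 0.34 (adjusted p = 0.281), and the G6pdx age difference in C57BL/6J was not called (adjusted p = 0.109).

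Of 13 further Nrf2 targets, 2 were higher and 1 lower at 4 weeks, against 6.37% and 9.01% of all genes. At 11 weeks 5 were higher and 1 lower, against 9.94% and 11.6%. The medians were 0.11 and 0.62, against 0.01 and -0.001 over all genes. Osgin1, an oxidative stress response gene, read 3.17 and 3.23 in C57BL/6J at 4 weeks, 4.43 and 4.64 in KKAy at 4 weeks, 4.55 and 4.61 in C57BL/6J at 11 weeks, and 6.10 and 6.26 in KKAy at 11 weeks. It differed by 1.33 between strains at 4 weeks (SE 0.12, adjusted p = 0.00155) and by 1.60 at 11 weeks (SE 0.12, adjusted p = 0.000639). With age it rose by 1.38 in C57BL/6J and by 1.64 in KKAy, and all 4 calls were kept without any 1 array. Ugdh, which makes the sugar donor of glucuronidation, rose with age by 0.74 in C57BL/6J (adjusted p = 0.0081) and by 1.61 in KKAy (adjusted p = 0.000448). The call in C57BL/6J was lost without any 1 of that strain's 4 arrays (adjusted p up to 0.0867) and with quantile normalization (0.67, adjusted p = 0.0619). The transporter Abcc4 was higher in KKAy by 1.49 at 4 weeks (SE 0.23, adjusted p = 0.00945) and stood at 0.85 on its second probe (adjusted p = 0.107). The call of the brightest was lost without C57BL/6J replicate 1 or KKAy replicate 2 of that age (adjusted p up to 0.061). Aox1, aldehyde oxidase, was higher by 1.08 at 11 weeks (SE 0.14, adjusted p = 0.00385) and the call was kept without any 1 array. The target called lower at 11 weeks was Cbr1, at -1.01 (SE 0.21, adjusted p = 0.0209). For age in C57BL/6J 3 of the 13 were called higher and 0 lower, against 1.9% and 6.46% of all genes. For age in KKAy 3 were called higher and 2 lower, against 7.92% and 10.7%. The latter were Cbr1, at -0.95 (adjusted p = 0.0296), and Pir, at -0.52 (adjusted p = 0.0225). The calls of Cbr1 and Pir were not followed singly under the alternatives.

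**Figure D5:**
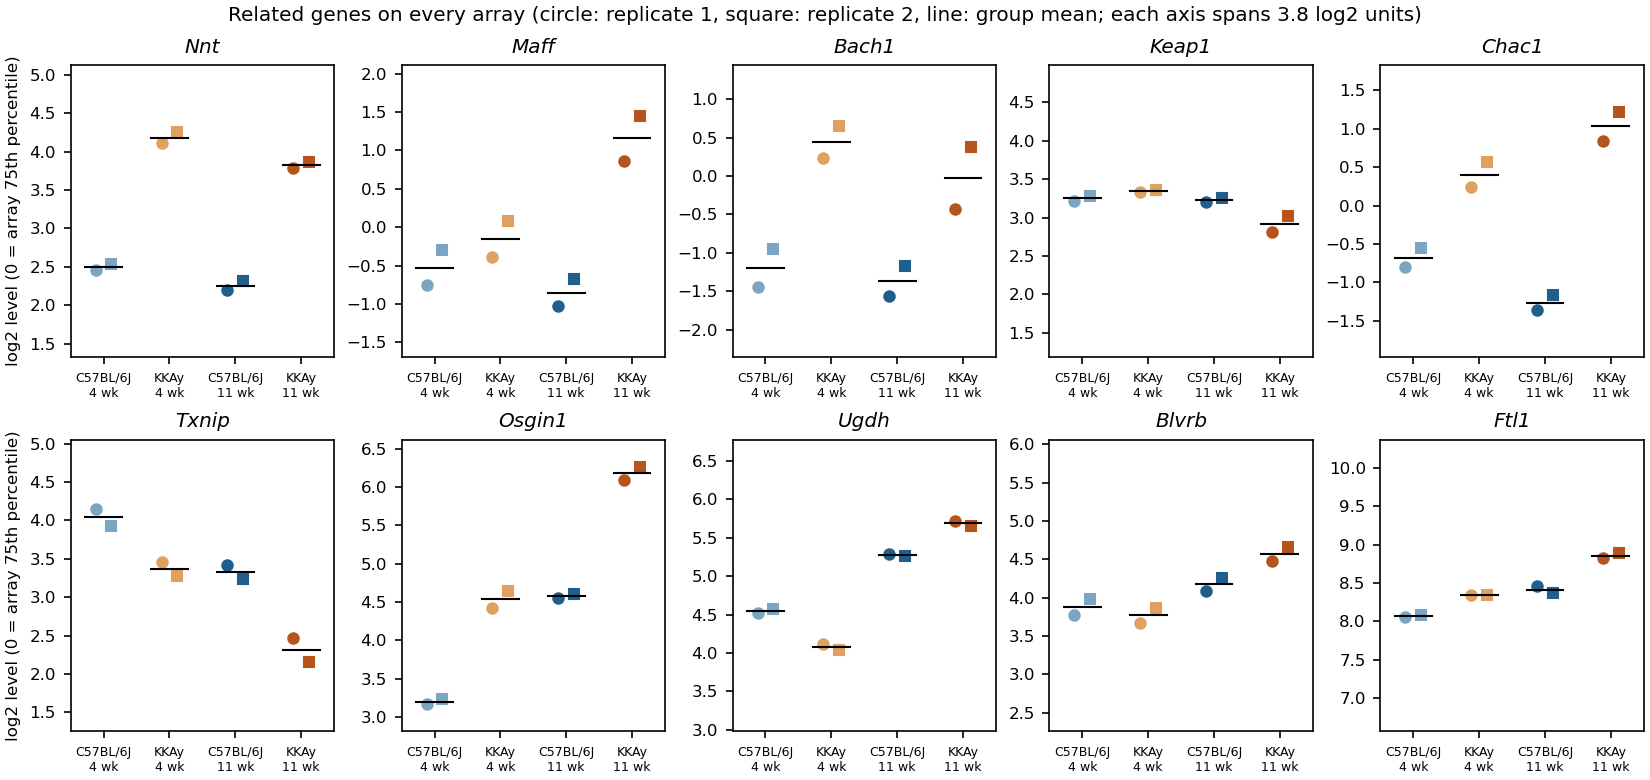
Log2 level of 10 related genes on every array, relative to the array's 75th percentile, by strain and age, with circles for replicate 1, squares for replicate 2 and lines for group means. Each panel spans 3.8 log2 units. The genes were picked from those named in the text after their values were seen. Nnt is higher in KKAy at both ages, by 1.69 and 1.57, and Txnip is lowest in KKAy at 11 weeks.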

How the data were processed

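Liver RNA was hybridised to 8 one-colour arrays, 2 per group. Spot intensity comes, per the file headers, from Agilent Feature Extraction 9.5.1.1 with background subtraction, spatial and multiplicative detrending and surrogate values for dim spots, and without normalization between arrays. The authors' deposited value table holds log2 values that equal the log2 intensity minus 1 constant per array (column medians -3.96 to -3.67). No spot was saturated.

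Repeat spots of a probe were averaged, controls and flagged outlier spots left out (59 to 89 per array), and log2 intensity was set against each array's 75th percentile. A probe was kept if some group had it above background on both of its arrays, and the brightest probe stood for each gene name. A model of group means over all 8 arrays used limma 3.58.1 (R 4.3.3), with Benjamini-Hochberg adjusted p over 17106 genes; the procedure was tested on simulated data. Alternatives covered background correction, normalization, filter, probes, arrays and the replicate number as a block. All members were named, and of each related list the 2 smallest adjusted p per comparison among calls, plus the 3 genes nearest in pattern to the member with the widest range. Members and lists were chosen with earlier results of these data known. List genes absent under their symbol were matched by older names. Figures used matplotlib 3.10.9. The number of arrays limits the precision.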

Additional observations from a re-analysis of the deposited data

Results flagged for a closer look

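The strain difference of 3 genes changed with age by a test of the difference itself. For Gclc it was 1.02 larger at 11 than at 4 weeks (limma adjusted p = 0.0249), for Ugdh 0.87 larger (adjusted p = 0.0286) and for Hmox1 0.83 larger (adjusted p = 0.0379). Ugdh stood below C57BL/6J in KKAy at 4 weeks, by -0.46 (adjusted p = 0.0247), and above it at 11 weeks, by 0.41 (adjusted p = 0.0304). Each of the 3 calls was lost when any 1 array was left out, with adjusted p up to 0.142, 0.159 and 0.195. With spike-in scaling none of the 3 was called: Gclc stood at 0.80 (adjusted p = 0.195), Ugdh at 0.66 (adjusted p = 0.266) and Hmox1 at 0.62 (adjusted p = 0.314). Quantile normalization lost those of Gclc (0.92, adjusted p = 0.122) and Ugdh (0.76, adjusted p = 0.141). Under spike-in scaling 0 related genes were called lower at 4 weeks, Ugdh included. Each 11-week array lay on the second slide, but both strains were on each slide, so a slide effect common to both strains cancels here. A slide effect that differs by strain or by array position cannot be told apart from a change with age.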

How the results depend on the processing

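No called difference of a member changed sign under any alternative except that of Nfe2l2 for age in KKAy on its probe to a cDNA clone (-0.16). Of the 9 calls, those of Gclc at 11 weeks and for age in KKAy held throughout. The number of members called was the same with normexp correction, the authors' value table and probes above background on all arrays. The last 2 are weak checks. The value table differs from these levels only by a constant per array, and all member probes passed the stricter filter. The mean of all probes likewise left the levels of members with a single probe, Gclc among them, unchanged. Quantile normalization gave 2 higher at 4 weeks, 1 lower at 11 weeks, 2 lower with age in KKAy and 1 with a larger difference at 11 weeks. Spike-in scaling gave 2 higher at 4 weeks, 1 higher and 2 lower with age in KKAy, and 0 for the change in the difference. With no filter there were 0 higher at 4 weeks, 2 higher (Nfe2l2 lost) and 0 lower with age in KKAy, and 0 for the change. From the 2 groups alone there were 0 at 4 weeks, and 1 higher and 0 lower with age in KKAy. The mean of all probes gave 1 lower at 11 weeks (Srxn1). With 1 array left out, the counts ran from 0 to 1 higher at 4 weeks, 1 to 2 higher at 11 weeks, 1 to 4 higher and 0 to 1 lower with age in KKAy, and were 0 for the change in the difference. Where an arm was left with 1 array, that array was assumed to vary like the others.

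Same-numbered arrays deviated together: the correlation across genes of the difference between replicates 1 and 2 was 0.53 to 0.67 over the 6 pairs of groups. The labels do not say that the numbers pair samples. With the replicate block, members called came to 2 higher and 2 lower at 4 weeks, 4 higher and 1 lower at 11 weeks, 3 higher and 1 lower with age in C57BL/6J, 7 higher and 2 lower with age in KKAy, and 4 higher and 3 lower for the change in the difference. The block called 20 further differences of members and lost 0 calls. At 4 weeks it added Txnrd1 (adjusted p = 0.00296), Gsr (0.0283) and Hmox1 (0.0379), and at 11 weeks Gclm (0.000479), Srxn1 (0.00139) and Nfe2l2 (0.00279). With age it added Txnrd1 (0.0102), Nfe2l2 (0.0171), Gsr (0.0284) and Hmox1 (0.0457) in C57BL/6J, and Gclm (0.000363), Srxn1 (0.00171), Gsr (0.00596), Gpx1 (0.0122) and Cat (0.0159) in KKAy. For the change in the difference it added Gclm (0.00371), Srxn1 (0.00858), Nfe2l2 (0.00875), Txnrd1 (0.021) and Nqo1 (0.0301). Of all genes, 7482, 9384, 5778, 9120 and 5286 were called with the block, in the same order, against 2631, 3677, 1430, 3184 and 646. Without the block these counts ran over the alternatives from 1325 to 3098, 1481 to 4156, 459 to 1567, 742 to 3522 and 62 to 854. Related genes called higher in KKAy at 11 weeks ran from 6 to 13, and were 37 with the block.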

Other observations

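A further probe, annotated by sequence similarity to haem oxygenase 1 and not by its gene name, was above background on 0 of the 8 arrays, with log2 levels of -8.34 to -6.76, and gave no second reading of Hmox1.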
